A study of Mus musculus with 13 samples.

Results

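Plasmacytoid dendritic cells (pDCs) were compared with B lymphocytes (B cells) of the mouse spleen, gene by gene, on 2 pDC arrays and 3 B cell arrays. These 5 arrays were taken by their titles from the 13 arrays of the series, which also hold CD8α and CD11b conventional dendritic cells (cDCs), NK cells and CD8 T cells. The study set out to place dendritic cell subsets among other leukocytes, and the pair described here asks which genes separate pDCs from B cells and which lymphoid genes both populations hold at a similar level. Cells of both groups came from collagenase-digested spleens of wild-type C57BL6 mice with no treatment. The pDCs were sorted as Lin- CD11c+ 120G8high cells, pooled from 10 to 15 mice for each array, and their age and sex are not given in the labels. The B cells were sorted by a B cell surface antigen from 3 mice, 2 mice and 1 mouse. Replicates 2 and 3 of the B cells are labelled as follicular cells of male mice of 6 weeks, and replicate 1 carries neither description. The sort used the products of Bst2 (the 120G8 antigen) and Itgax (CD11c), so their values are no findings. As the RNA of many cells was pooled, fewer cells that express a gene and less of its RNA per cell cannot be told apart.

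pDCs are a sparse leukocyte type that senses viral nucleic acid through Toll-like receptors of the endosome and secretes large amounts of type I interferon. They arise from bone marrow progenitors under the E protein TCF4 and share with lymphocytes a rounded, secretory shape and some genes of early lymphoid development. B cells detect antigen through the B cell receptor, a membrane immunoglobulin joined to CD79A and CD79B. That receptor signals through the kinases SYK and BTK and the adaptor BLNK to phospholipase C gamma, and the cells later secrete antibody.

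The values are MAS5 signals, a linear brightness per probe set scaled to the same target on each array. Signals below 20 were set to 20 before log2 values were taken, and a fold against a group that lies wholly below this floor is given as "at least". Differences are log2 pDC minus B with the standard error of a limma model of all 6 populations. A gene is called at a Benjamini-Hochberg adjusted p below 0.05 over all genes tested, two-sided. Floored log2 signals correlated across the genes tested with r = 0.98 between the 2 pDC arrays, 0.979 between B cell replicates 2 and 3, and 0.934 and 0.935 between B cell replicate 1 and the others. The pDC arrays and B cell arrays correlated at 0.747 to 0.782. Genes are not independent replicates in these values. B cell replicate 1 therefore stood apart from its group. Its chip was of another lot than those of replicates 2 and 3, and 100 ng of its RNA was amplified, against 50 ng for each of those replicates. The ratio of 3′ to 5′ signal of GAPDH, a sign of RNA quality, was 4.12 and 5.99 on the pDC arrays, against 3.86, 6.30 and 5.64 on the B cell arrays, and that of actin was 1.48 and 1.79 on the pDC arrays, against 1.42, 2.05 and 2.64 on the B cell arrays. B cell replicate 1 thus had the lowest ratios of the 5 arrays, and the part of lot, RNA amount and RNA quality in its differences was not tested. B cell replicate 2, labelled male, went against its label on sex-linked genes, so the results below are also described without each of these arrays. The pDC arrays and the B cell arrays were scanned in different periods on chips of different lots, and these differences cannot be told apart from that between the cell types.

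Of 9391 genes tested, 3985 differed between pDCs and B cells (42.4%). In pDCs 2035 genes were higher (21.7%) and 1950 were lower (20.8%), and the median difference over all genes tested was -0.03. At least 2-fold differences were seen for 1388 of the higher genes and 1019 of the lower genes. The 2 pDC arrays did not overlap with the 3 B cell arrays for 3949 of the called genes. A similar level was defined as a signal of at least 50 on all 5 arrays with the 95% interval of the log2 difference between -1 and 1, that is, within 2-fold. It was met by 3383 of 6545 genes measured at 50 or more on all 5 arrays (51.7%, or 36% of all genes tested), of which 315 were also called with a small difference. Another 895 of these 6545 genes met neither rule. The count of lower genes was 1271 without pDC replicate 2, and the lists below are read against these shares.

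**Figure D1:**
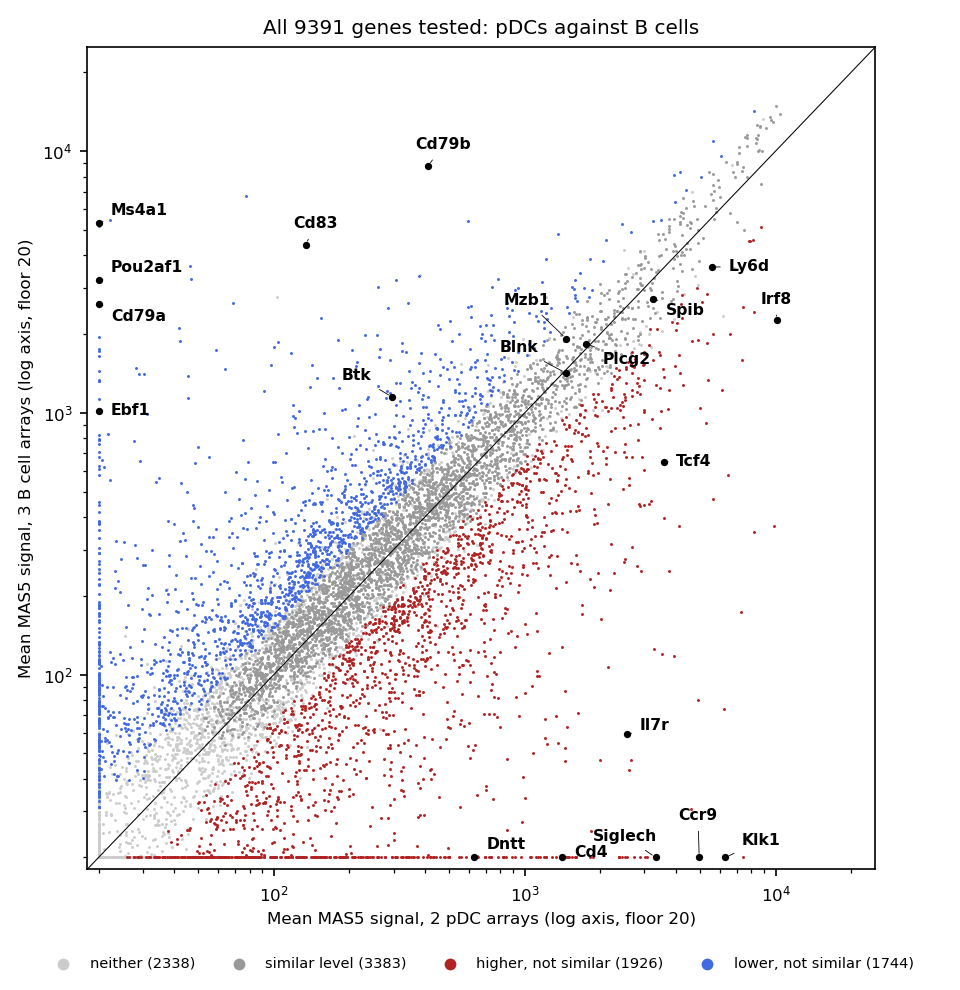
Mean MAS5 signal (floor 20, both axes log) of each of the 9391 genes tested over the 2 pDC arrays (horizontal) and the 3 B cell arrays (vertical), with red and blue for genes called higher and lower in pDCs and not at a similar level, dark grey for the 3383 genes at a similar level and light grey for the rest. Siglech, Ccr9 and Klk1 lie at the lower right, Ms4a1, Cd79a and Pou2af1 at the upper left, and Blnk and Spib near the line of equal signal.

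The 4 marker genes given for this pair fell into 3 kinds. Blnk, the adaptor that links SYK to phospholipase C gamma below the B cell receptor, gave signals of 1551 and 1374 on the pDC arrays, against 1849, 1173 and 1231 on the B cell arrays. The groups overlapped, and the difference of 0.07 ± 0.19 had a 95% interval of -0.35 to 0.50, which is a similar level. With no floor and log2(signal + 1), the interval was -1.42 to 1.57 and the rule was no longer met. Spib, an ETS family factor of B cells and pDCs, gave 3310.0 and 3207 on the pDC arrays, against 3448, 2032 and 2709 on the B cell arrays. Its groups overlapped too, with a difference of 0.29 ± 0.29 and an interval of -0.36 to 0.93. That interval passed 1 without pDC replicate 1 (upper bound 1.17), without pDC replicate 2 (1.22), without B cell replicate 1 (1.12) and without B cell replicate 3 (1.05). Ly6d, a surface protein of B cell progenitors, had signals of 6094 and 5062 on the pDC arrays, against 5936, 2057 and 2832 on the B cell arrays. The pDC arrays lay within the range of the B cell arrays or just above it, and the difference of 0.77 ± 0.34 was not called (adjusted p = 0.0932). Without B cell replicate 1 it was 1.20 and called (adjusted p = 0.000263). Tcf4, the E protein that pDCs require, separated the groups with 3832 and 3342 on the pDC arrays, against 626, 627 and 699 on the B cell arrays. It was 5.51-fold higher in pDCs, a log2 difference of 2.46 ± 0.17 (adjusted p = 7.96e-07).

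Blnk, Spib and Ly6d were far lower in the cDC subsets measured beside them, where mean signals of Blnk were 0.792 in CD8α cDCs and 5.95 in CD11b cDCs. For Spib the means were 36.4 in CD8α cDCs and 515 in CD11b cDCs, and for Ly6d they were 10.9 in CD8α cDCs and 7.75 in CD11b cDCs. E proteins such as TCF4 bind the E-box, whose letters are CANNTG and which reads the same on both strands. The 250 bases before the start of 4 genes are printed to show these letters beside the levels: Siglech as a gene higher in pDCs, Cd79a as a gene lower in pDCs, and Blnk and Spib as genes at a similar level. The sequences are those of RefSeq on build GRCm38.p6, 5′ to 3′ on the strand of the gene, and capitals mark CANNTG.
Siglech (chr7:55767934-55768183, plus strand): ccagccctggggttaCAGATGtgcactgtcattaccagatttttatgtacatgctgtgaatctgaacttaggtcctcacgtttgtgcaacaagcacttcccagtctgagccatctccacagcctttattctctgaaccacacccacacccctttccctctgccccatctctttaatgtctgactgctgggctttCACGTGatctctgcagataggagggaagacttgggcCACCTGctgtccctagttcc
Cd79a (chr7:24897247-24897496, plus strand): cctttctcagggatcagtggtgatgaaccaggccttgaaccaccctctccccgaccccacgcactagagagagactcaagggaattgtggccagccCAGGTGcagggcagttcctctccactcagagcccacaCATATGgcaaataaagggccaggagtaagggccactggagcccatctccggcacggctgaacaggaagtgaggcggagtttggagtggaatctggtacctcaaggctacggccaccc
Blnk (chr19:40994222-40994471, minus strand): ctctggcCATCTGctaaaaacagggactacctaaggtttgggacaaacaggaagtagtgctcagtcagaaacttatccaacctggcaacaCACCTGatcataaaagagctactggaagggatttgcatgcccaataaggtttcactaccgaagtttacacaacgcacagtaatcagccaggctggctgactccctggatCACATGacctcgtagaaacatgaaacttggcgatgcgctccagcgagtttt
Spib (chr7:44532072-44532321, minus strand): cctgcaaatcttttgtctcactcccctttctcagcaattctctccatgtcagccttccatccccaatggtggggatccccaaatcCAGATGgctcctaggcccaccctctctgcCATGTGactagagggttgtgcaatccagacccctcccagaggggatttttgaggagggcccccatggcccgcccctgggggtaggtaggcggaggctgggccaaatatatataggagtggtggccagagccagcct
The window of Siglech held 3 matches, at 235, 56 and 20 bases before the start. That of Cd79a held 2, at 154 and 117 bases, that of Blnk held 3, at 243, 160 and 51 bases, and that of Spib held 2, at 165 and 136 bases. These letters are common: 66.2% of all 32851 such windows hold at least 1 match. Among genes tested that have 1 window, the share was 58.3% of 1300 genes higher in pDCs, 54.7% of 1266 genes lower in pDCs and 53.7% of 2269 genes at a similar level, beside 56.1% of all 6097. A match describes letters only and is not a binding site.

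Genes listed for pDCs were higher as a group. Several of them, such as Epha2, Pacsin1 and Zfp521, are in the pDC signature of the study. As these arrays were used to draw that signature, the counts here are a description. Of 25 listed genes 22 were tested, and 21 of these were higher in pDCs, Spib being the exception. Their median difference was 4.07, beside -0.03 over all genes. The count was also 21 with each of the 5 arrays left out in turn. It includes Bst2, whose product the sort used. Siglech, the sialic acid-binding lectin used to recognise mouse pDCs, gave 3613 and 3038 on the pDC arrays, against 27.00, 3.69 and 1.05 on the B cell arrays. Both pDC arrays lay far above all B cell arrays, and the gene was 149.9-fold higher (difference 7.23 ± 0.17, adjusted p = 3.15e-10). Klra17, which encodes the receptor Ly49Q of pDCs and belongs to a family of near-identical genes, had 2963 and 3177 on the pDC arrays, against 8.34, 1.14 and 8.37 on the B cell arrays. It was at least 153-fold higher (7.26 ± 0.15, adjusted p = 2.38e-10). Ccr9, the receptor for the gut chemokine CCL25, had 4877 and 5046 on the pDC arrays, against 10.8, 9.85 and 28.2 on the B cell arrays and was 221-fold higher (adjusted p = 6.9e-09). The 4 other probe sets of Ccr9 had differences of 1.17 to 6.92. Irf8, a factor of dendritic cell development that B cells also express, differed less: its signals were 10515 and 9727 on the pDC arrays, against 2283, 2328 and 2156 on the B cell arrays, and it was 4.49-fold higher (adjusted p = 2.79e-07). The smallest called difference of the list was that of Plac8 at 0.79 ± 0.15, with 7702 and 7925 in pDCs and 4943, 3902 and 4779.7 in B cells. Tlr9, the receptor for DNA with CpG motifs that both cell types are known to use, stayed below the signal filter with 23.5 and 17.9 on the pDC arrays, against 4.50, 32.96 and 13.7 on the B cell arrays and was not tested.

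The 15 largest differences on the pDC side ran from 6.53 to 8.29. They held genes of several kinds beside the pDC genes above. Klk1, a secreted kallikrein protease, had signals of 6929.5 and 5688 on the pDC arrays, against 2.24, 2.17 and 0.437 on the B cell arrays, and was at least 314-fold higher. One of its 3 other probe sets moved the other way, at -1.34. Fcer1g, the common gamma chain that couples Fc receptors and related receptors to signalling, was at least 118-fold higher with 2678 and 2081 in pDCs and 11.5, 17.5 and 11.5 in B cells. Csf2rb2, the mouse beta chain of the interleukin-3 receptor, was 125-fold higher, and Clec10a, a galactose-binding lectin of myeloid cells, was at least 127-fold higher. Upb1, an enzyme of pyrimidine breakdown, was 115-fold higher, and Ccnd1, the cyclin D1 of early cell cycle entry, was 115-fold higher with 2976 and 2780.0 in pDCs and 38.98, 13.2 and 5.04 in B cells.

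Genes of B cell identity stood on the other side. Most of those listed, such as Ms4a1, Cd79a and Ebf1, are in the B cell signature of the study. That signature was drawn in part from these same arrays, so the counts here are a description. Of 20 listed genes 19 were tested, and 18 were lower in pDCs with a median of -5.52. The same count of 18 was found without each of the 5 arrays in turn. Ms4a1, which encodes the B cell antigen CD20, had signals of 6.92 and 13.04 on the pDC arrays, against 7749.7, 3888 and 4316 on the B cell arrays. It was at least 253-fold lower in pDCs (-7.98 ± 0.40, adjusted p = 6.45e-08). Cd79a, the signalling chain of the B cell receptor, had 1.37 and 10.8 on the pDC arrays, against 3443, 2208 and 2160.2 on the B cell arrays and was at least 127-fold lower (adjusted p = 1.14e-09). Both pDC signals lay below the floor for Ms4a1, Cd79a, Pax5, Ebf1, Pou2af1 and Cxcr5, so these defining B cell genes were not measurable in the pDC arrays. Cd79b, the partner chain, was still measured on both pDC arrays, with 479 and 344 on the pDC arrays, against 9074, 8242 and 8993 on the B cell arrays, and was 21.6-fold lower (adjusted p = 1.13e-08). Fcrla, an Fc receptor-like protein of B cells, also kept a signal, with 627 and 289 in pDCs and 1756, 1432 and 1623 in B cells. Cd37, a tetraspanin, was the member not called, at -0.85 ± 0.41 (adjusted p = 0.123). Another probe set of Cd37 had a difference of -2.90. With each gene taken by its probe set of largest variance, all 19 tested genes were lower.

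The 15 largest differences on the B cell side ran from -5.93 to -7.98. Scd1, the desaturase that makes monounsaturated fatty acids, gave 1.39 and 0.806 on the pDC arrays, against 6487, 5121 and 3856 on the B cell arrays and was at least 252-fold lower. Another probe set of Scd1 had a difference of -3.49. Fcmr, the Fc receptor for IgM, was 242-fold lower with 20.6 and 23.9 in pDCs and 6881, 4568 and 4921 in B cells. Bank1, a scaffold of B cell receptor signalling, was 149-fold lower, and Cd55, a regulator of complement on the cell surface, was at least 84.4-fold lower. B3gnt5, a glycosyltransferase, was at least 96.8-fold lower, and Gimap4, a GTPase of lymphocytes, was 76.9-fold lower with 38.9 and 53.9 in pDCs and 4996, 2681 and 3272 in B cells. Cd2, an adhesion molecule of lymphocytes, was at least 64.1-fold lower. The immunoglobulin variable segment Ighv14-2 was 87.3-fold lower, but probes to immunoglobulin segments can bind related segments, so its identity is uncertain.

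The lymphoid genes went in both directions. Of 49 genes chosen from lymphocyte development and signalling, 40 were tested. Of these 11 were higher in pDCs, 14 were lower, and 10 met the rule for a similar level. Over all genes tested 21.7% were higher, 20.8% were lower and 36% were at a similar level. Of the listed genes 31 were at 50 or more on all 5 arrays, and 51.7% of all such genes were at a similar level. The median of the listed genes was -0.17. Counts of higher genes were 10 to 13 and those of lower genes 11 to 14 when single arrays were left out. The similar count moved more, to 4 without pDC replicate 1, 7 without pDC replicate 2, 8 without B cell replicate 1, 9 without B cell replicate 2 and 7 without B cell replicate 3.

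Among the lymphoid genes higher in pDCs were markers better known from T cells and lymphoid progenitors. Cd4, the coreceptor of helper T cells that pDCs also carry, had 1526 and 1287 on the pDC arrays, against 4.65, 1.21 and 1.50 on the B cell arrays. It was at least 70.1-fold higher (6.13 ± 0.14, adjusted p = 2.69e-10). Cd7, an immunoglobulin superfamily protein of T and NK cells, was at least 92.4-fold higher with 2186 and 1561 in pDCs and 6.49, 2.09 and 14.1 in B cells. Il7r, the interleukin-7 receptor chain of lymphoid progenitors, had 2113 and 3019.8 on the pDC arrays, against 67.9, 50.1 and 59.00 on the B cell arrays. The B cell arrays lay close together at the low end, and the gene was 43.1-fold higher (5.43 ± 0.20, adjusted p = 5.48e-09). Dntt, the terminal transferase that adds bases during antigen receptor rearrangement, had 539 and 717 on the pDC arrays, against 9.52, 2.96 and 1.38 on the B cell arrays and was at least 31.1-fold higher (adjusted p = 6.9e-09). Rag1 and Rag2, the recombinase pair that works with it, stayed below the filter, Rag1 with 17.4 and 14.9 in pDCs and 27.4, 14.3 and 23.4 in B cells. The 2 other probe sets of Dntt had differences of 1.98 and 4.57. Ikzf2, the Ikaros family factor Helios, was 9.45-fold higher, and Notch1, the receptor that directs T cell fate, was 5.73-fold higher. Sla2, an adaptor that dampens antigen receptor signals, was 11.9-fold higher with 298 and 303 in pDCs and 13.1, 40.2 and 16.5 in B cells.

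Lymphoid genes lower in pDCs included Gimap8, a GTPase of mature lymphocytes, which was 38.4-fold lower with 60.2 and 76.9 in pDCs and 2951, 2266 and 2679 in B cells. Lax1, a transmembrane adaptor of lymphocytes, was at least 13.4-fold lower, and Satb1, an organiser of lymphocyte chromatin, was 4.97-fold lower with 309.9 and 339 in pDCs and 944, 2095 and 2112 in B cells. Rhoh, a small GTPase of lymphocytes, was 4.06-fold lower. Gfi1, a zinc finger repressor, was at least 5.35-fold lower with 18.3 and 17.2 in pDCs and 54.2, 101 and 224 in B cells.

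**Figure D2:**
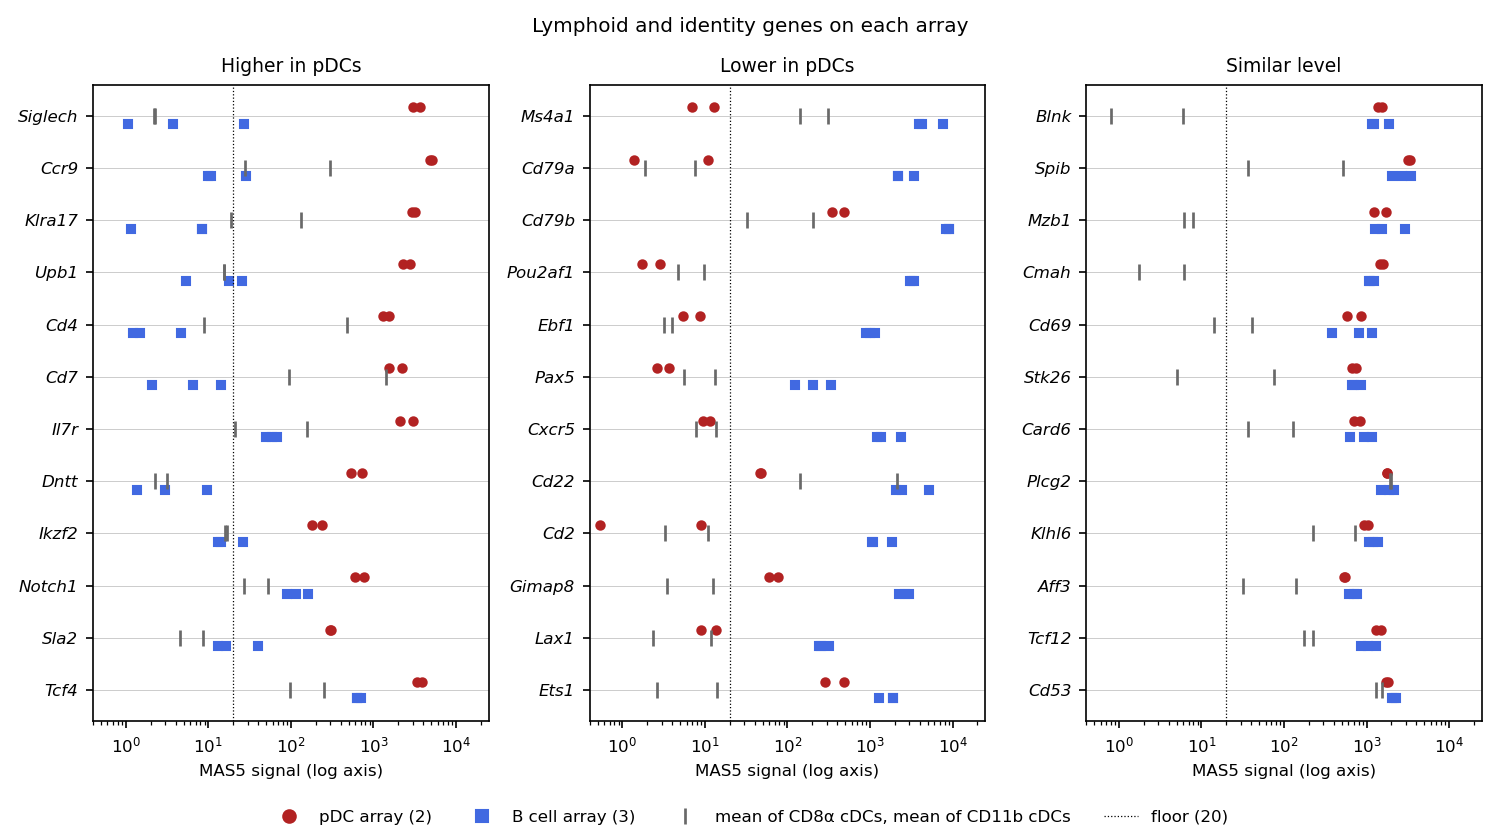
MAS5 signal (log axis) of 12 genes higher in pDCs, 12 lower and 12 at a similar level on each of the 2 pDC arrays (red circles, upper) and 3 B cell arrays (blue squares, lower), with grey bars for the means of the CD8α and CD11b cDC arrays and a dotted line at the floor of 20. pDC and B cell points are separated by the whole panel for Cd4 and Cd79a and interleave for Blnk, Spib and Plcg2.

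Genes at a similar level in both populations were also ranked by how far the lower of the pDC and B cell means stood above the higher of the cDC means. This rank used the pDC and B cell levels, so it is a description. Its first 15 genes were Mzb1, Blnk, Cmah, Cd69, Pdlim1, Stk26, Gpat3, Arhgap24, Card6, Pkig, Abhd17b, Zcchc18, Ppm1l, Spib and Pim2. Mzb1, a chaperone of the endoplasmic reticulum in marginal zone B cells and plasma cells, gave 1709 and 1216 on the pDC arrays, against 2956, 1264 and 1546 on the B cell arrays, beside means of 6.09 in CD8α cDCs and 7.93 in CD11b cDCs. The difference was -0.32 ± 0.30 with an interval of -0.99 to 0.36, close to the bound of the rule. Cmah, the enzyme that makes the sialic acid Neu5Gc, gave 1584 and 1439 on the pDC arrays, against 1226, 1089.7 and 1065 on the B cell arrays and had means of 1.74 in CD8α cDCs and 6.17 in CD11b cDCs. Both pDC arrays were the higher ones, and without B cell replicate 1 the difference of 0.49 was called (adjusted p = 0.0292). The 4 other probe sets of Cmah had differences of -0.92 to 0.88. Stk26, a kinase of the germinal centre kinase family, gave 673 and 741 on the pDC arrays, against 862, 668 and 702 on the B cell arrays, a difference of -0.07 ± 0.15. Plcg2, the phospholipase C below the B cell receptor, gave 1751 and 1767 on the pDC arrays, against 2157, 1485 and 1872 on the B cell arrays with a difference of -0.05 ± 0.22, and both cDC subsets had it as well (1943 in CD8α cDCs and 1979 in CD11b cDCs). Klhl6, an adaptor of ubiquitin ligases in B cells, differed by -0.29 ± 0.19 with 1054 and 935 in pDCs and 1362, 1084 and 1206 in B cells, and Aff3, a nuclear protein of lymphoid cells, by -0.34 ± 0.21 with 553 and 535 in pDCs and 768, 607 and 700.2 in B cells. For Klhl6 and Aff3 both pDC arrays were the lower ones. Another probe set of Aff3 had a difference of -1.27, past the bound of the rule. Several of these genes left the rule for a similar level when 1 array was left out, with bounds then between -1.55 and 1.52. They were Abhd17b, Aff3, Card6, Cd69, Mzb1 and Spib without pDC replicate 1, and Cd69, Pdlim1, Spib and Zcchc18 without pDC replicate 2. On the B cell side they were Cd69, Pdlim1 and Spib without replicate 1, Cd69 and Mzb1 without replicate 2, and Cd69, Mzb1, Pdlim1 and Spib without replicate 3. Zcchc18 was called without B cell replicate 1 (0.55, adjusted p = 0.0247).

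E proteins and the Id proteins that bind and block them differed in direction from gene to gene. Of 7 tested genes of this group 3 were higher in pDCs and 2 were lower, with a median of 0.74, beside 21.7% and 20.8% of all genes. Tcf4 was higher as given above, while Tcf3, which encodes the E2A proteins of B cell commitment, was 3.40-fold lower with 139.6 and 122 in pDCs and 319, 519.5 and 525 in B cells (adjusted p = 8.27e-05). Tcf12, which encodes the third E protein HEB, was at a similar level with 1311 and 1509.5 in pDCs and 858, 1306 and 1033 in B cells (0.42 ± 0.19), although it was called without B cell replicate 2 (0.58, adjusted p = 0.0335) and had an interval of -0.03 to 1.08 without pDC replicate 1. Zeb2, a repressor of Id2 in pDC development, was 4.29-fold higher with 796 and 1240.1 in pDCs and 157, 283 and 280.0 in B cells. Cbfa2t3, a corepressor that partners E proteins, was 6.05-fold higher with 629 and 538 in pDCs and 209, 60.6 and 70.4 in B cells. Id3, an inhibitor of E proteins, was 3.08-fold lower with 233 and 176 in pDCs and 541, 560.0 and 803 in B cells. Id2, the inhibitor that cDCs use, gave 78.5 and 90.5 in pDCs and 82.1, 36.9 and 42.7 in B cells and was not called (0.74 ± 0.31, adjusted p = 0.0762). Without B cell replicate 1 its difference was 1.09 and called (adjusted p = 0.00151).

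Genes of B cell receptor signalling were more often lower than higher in pDCs. Of 27 tested genes 15 were lower, beside 20.8% of all genes tested, and 3 were higher, beside 21.7%. The list had 8 genes at a similar level, beside 36% of all genes tested, and a median of -0.75. Lower counts were 11 to 15 when single arrays were left out, and 1 gene was higher without pDC replicate 2. At the receptor, Cd79a and Cd79b were lower as given above, and so was Cd22, a sialic acid-binding inhibitory receptor, which was 63.4-fold lower with 46.5 and 47.3 in pDCs and 5210.0, 2079 and 2423 in B cells. Cd81, a tetraspanin of the coreceptor, was 32.96-fold lower. Cd72, an inhibitory receptor, was 3.63-fold lower with 521 and 507 in pDCs and 2257, 1747 and 1646 in B cells, and Fcgr2b, the inhibitory Fc receptor, was 4.84-fold lower with 259.9 and 213 in pDCs and 1333, 959 and 1154 in B cells. Ighm, the mu heavy chain, had a signal on the pDC arrays also, with 5616 and 5694 in pDCs and 15705, 7851 and 9163 in B cells. It also had mean signals of 2297 for CD8 T cells, 2165 for CD11b cDCs, 2107 for CD8α cDCs and 1470 for NK cells. How much of the signal of Ighm came from mu chain RNA was not tested. Its call (-0.88 ± 0.25, adjusted p = 0.0147) was lost without pDC replicate 1 (-0.87, adjusted p = 0.0781) or pDC replicate 2 (-0.89, adjusted p = 0.0721), and immunoglobulin genes share sequence.

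Among the kinases, Blk, a SRC family kinase of B cells, was 45.8-fold lower with 55.03 and 29.7 in pDCs and 2166, 1415 and 2070.3 in B cells (adjusted p = 9.13e-08). Btk, the kinase missing in X-linked agammaglobulinaemia, gave 359 and 232 on the pDC arrays, against 985, 1029.9 and 1433 on the B cell arrays. It was 3.92-fold lower (adjusted p = 4.69e-05) but still measured on both pDC arrays. Syk, the kinase first recruited to the receptor, gave 1645 and 1443 in pDCs and 2496, 2770.0 and 3806 in B cells. Its call (-0.95 ± 0.31, adjusted p = 0.0319) was lost without pDC replicate 1 (adjusted p = 0.0994), pDC replicate 2 (adjusted p = 0.165), B cell replicate 2 (adjusted p = 0.0524) or B cell replicate 3 (adjusted p = 0.0958). Fyn, another SRC family kinase, ran the other way with 3673 and 3835 in pDCs and 469, 1649 and 1547 in B cells. Its difference of 1.82 ± 0.43 was 1.23 without B cell replicate 1 and was not called without pDC replicate 2 (adjusted p = 0.0508). Below the kinases, Rasgrp3, an exchange factor that activates RAS in B cells, was 53.7-fold lower with 21.5 and 34.9 in pDCs and 1644, 1556 and 1249.5 in B cells. Pik3ap1, the adaptor BCAP that brings in phosphoinositide 3-kinase, was 2.35-fold higher with 607 and 712 in pDCs and 272, 324 and 249.9 in B cells (adjusted p = 0.000709). Grb2, an adaptor to RAS, was lower at -0.75 ± 0.26 (adjusted p = 0.0401), but not called without pDC replicate 2 (adjusted p = 0.312), B cell replicate 1 (adjusted p = 0.089) or B cell replicate 3 (adjusted p = 0.0518). Bcl10, an adaptor to NF-kB, was lower at -0.52 ± 0.15 (adjusted p = 0.0179) within the bounds of a similar level, and not called without pDC replicate 2 (adjusted p = 0.0909). Several adaptors and enzymes beside Blnk and Plcg2 were at a similar level. Vav1, an exchange factor for RAC, differed by -0.05 ± 0.26, Pik3cd, the catalytic delta subunit of the lipid kinase, by 0.14 ± 0.24, and Dapp1, an adaptor that binds its lipid product, by 0.20 ± 0.20. Without pDC replicate 1 the interval of Vav1 was -1.02 to 0.53, just past the bound. Prkcb, the protein kinase C of B cells, differed by -0.38 ± 0.16 with 1762 and 1782 in pDCs and 2729, 2176 and 2079.8 in B cells. Nfatc1, a factor downstream of calcium, was 2.20-fold lower with 378 and 337 in pDCs and 742, 842 and 774 in B cells.

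**Figure D3:**
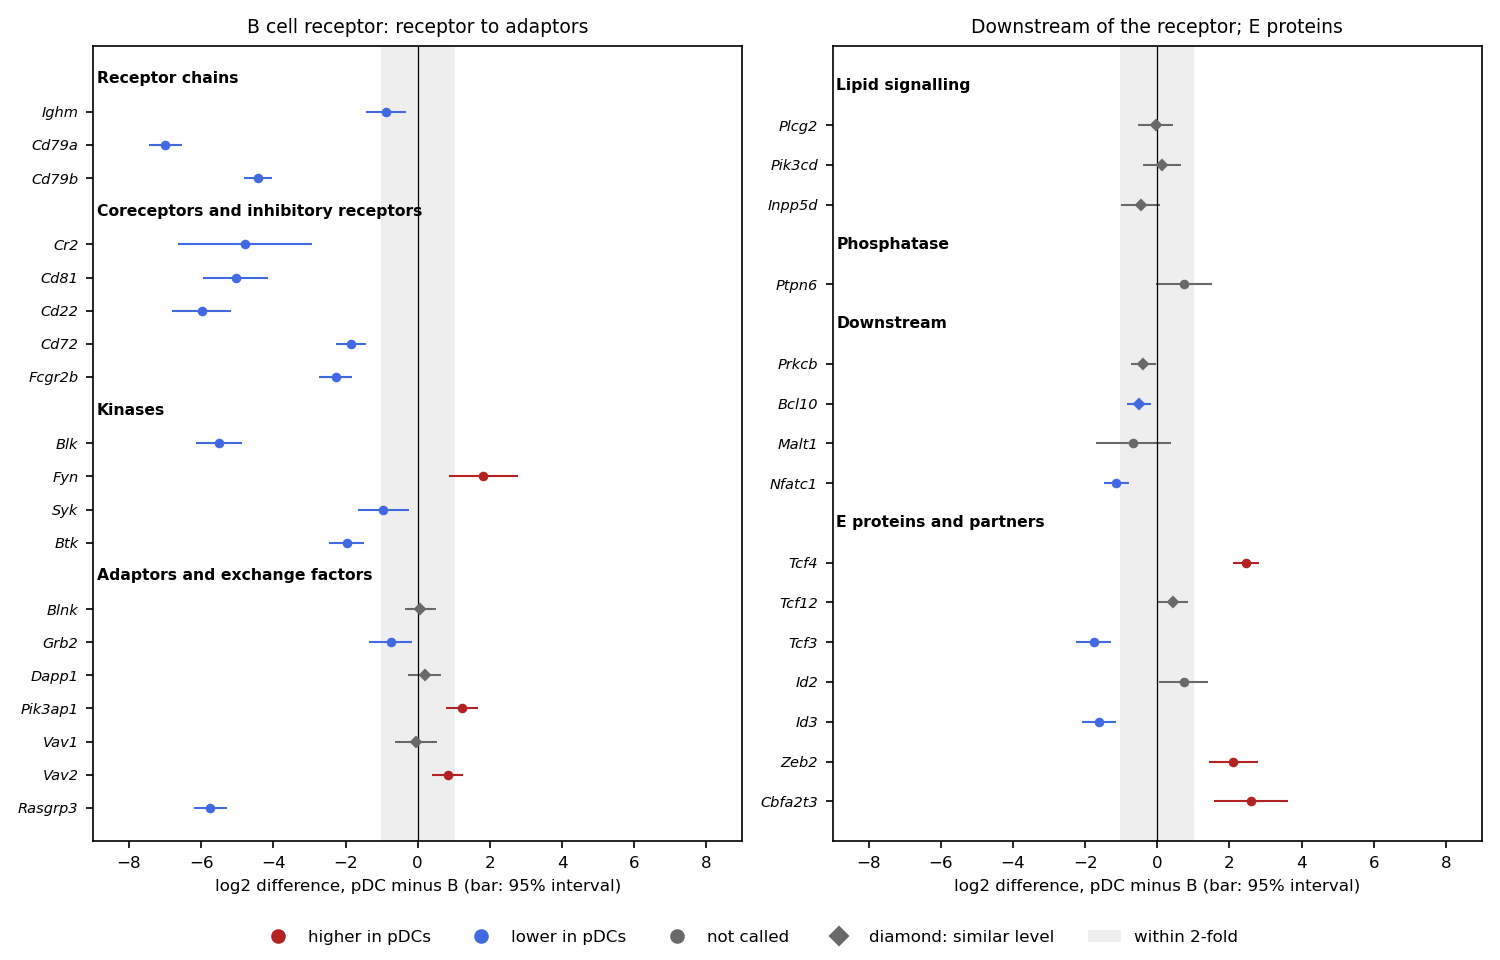
Log2 difference, pDC minus B, of genes of B cell receptor signalling from receptor to downstream factors and of E proteins and partners, with bars for the 95% interval and shading for differences within 2-fold. Receptor chains and coreceptors lie to the left of the shading except Ighm, while Blnk and Plcg2 lie on the line, and Tcf4 lies at 2.46 against Tcf3 at -1.77.

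Transcription factors of lymphocytes and dendritic cells went both ways. The shares of all genes tested, for comparison, were 21.7% higher, 20.8% lower and 36% at a similar level. Of 34 tested factors 9 were higher in pDCs, 15 were lower and 5 were at a similar level (median -0.60), and 5 were higher without pDC replicate 2. The factors that establish B cells were lower: Ebf1, with 8.63 and 5.46 in pDCs and 995, 895 and 1160.2 in B cells, was at least 50.5-fold lower in pDCs. Pax5, which holds the B cell programme, was at least 10.2-fold lower with 2.64 and 3.63 in pDCs and 125, 201 and 333 in B cells. Pou2af1, a coactivator of octamer-binding factors, was at least 160.3-fold lower with 2.87 and 1.73 in pDCs and 3216, 3403 and 3008 in B cells. Bach2, a repressor that delays plasma cell fate, was 13.95-fold lower with 173 and 135 in pDCs and 1201, 2536 and 3167 in B cells. Foxo1, which drives expression of the recombinase, was 4.79-fold lower, and Ets1, an ETS factor of lymphocytes, was 4.49-fold lower. Myc, the growth regulator, gave 4.56 and 13.4 on the pDC arrays, against 696, 644 and 546 on the B cell arrays, and was at least 31.3-fold lower (adjusted p = 2.67e-08).

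Within the interferon regulatory factors the 4 tested in this list did not go together. Irf8 was higher as given above, and Irf7, which drives type I interferon genes, was 5.25-fold higher with 1423 and 1133 in pDCs and 204, 519.7 and 133 in B cells (adjusted p = 0.00123). Irf4, a factor of B cell and plasma cell differentiation, was 3.53-fold lower with 358 and 431 in pDCs and 1030.5, 1651 and 1568 in B cells (adjusted p = 0.00065). Irf5, which acts below Toll-like receptors, was at a similar level with 485 and 314 in pDCs and 457, 302 and 372 in B cells. Xbp1, the factor of the unfolded protein response that plasma cells need, was 3.86-fold higher with 3165 and 3244 in pDCs and 1681, 533 and 639 in B cells (adjusted p = 0.00268). Without B cell replicate 1, whose signal was the highest of its group, the log2 difference of Xbp1 was 2.46, against 1.95 with it. Spi1, the ETS factor PU.1, was at a similar level with 261 and 164 in pDCs and 217, 169.7 and 161 in B cells, though its interval was -0.05 to 1.10 without pDC replicate 2. Bcl11a, a zinc finger factor of both lineages, gave 1557 and 1381 in pDCs and 1054, 464 and 651 in B cells. Its call (1.10 ± 0.29, adjusted p = 0.0108) was lost without pDC replicate 1 (adjusted p = 0.0828).

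Of 18 tested genes of endosomal sensing and interferon induction 9 were higher in pDCs and 1 was lower, with a median of 0.88. Among all genes tested the shares were 21.7% and 20.8%. When single arrays were left out 7 to 11 were higher. Tlr7, the endosomal receptor for single-stranded RNA, gave 693 and 683 on the pDC arrays, against 205, 153 and 41.4 on the B cell arrays. Both pDC arrays lay above all B cell arrays, and the difference was 2.66 ± 0.52 (adjusted p = 0.00204), or 1.96 without B cell replicate 3. Tlr12, a receptor for profilin of parasites in mice, was at least 12.6-fold higher with 311 and 204 in pDCs and 1.84, 14.7 and 6.42 in B cells. Myd88, the adaptor of these receptors, was 2.49-fold higher with 677 and 573 in pDCs and 301, 201 and 260.1 in B cells (adjusted p = 0.00031). Ifnar2, a chain of the type I interferon receptor, gave 2446 and 1921 on the pDC arrays, against 235, 174 and 219 on the B cell arrays. It was 10.4-fold higher (3.38 ± 0.19, adjusted p = 1.62e-07). Pld4, an endosomal exonuclease, gave 6002 and 5273 in pDCs and 1047, 129.9 and 224 in B cells. Its difference of 4.17 ± 0.65 (adjusted p = 0.000475) was 5.04 without B cell replicate 1 and 3.54 without B cell replicate 2. Irak2, a kinase of the MYD88 complex, was the lower gene at 2.53-fold lower with 62.7 and 52.5 in pDCs and 169.9, 137 and 132 in B cells.

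The proteins that bring Toll-like receptors to the endosome were not called with all arrays. Unc93b1, the chaperone of their traffic, gave 1358 and 788 in pDCs and 997, 564 and 506 in B cells (0.65 ± 0.31, adjusted p = 0.113). Slc15a4, an endolysosomal transporter that pDCs need for interferon production, gave 1238 and 1094 in pDCs and 1177, 455 and 533 in B cells (0.82 ± 0.34, adjusted p = 0.0726). Both were called without B cell replicate 1, Unc93b1 at 0.95 and Slc15a4 at 1.24. The next list is set beside 21.7% of all genes tested that were higher in pDCs and 20.8% that were lower. Of 7 tested genes of cell surface Toll-like receptors and partners, 3 were higher and 2 lower, and between 1 and 5 were higher when single arrays were left out. Tlr1, which pairs with TLR2 on lipopeptides, was 27.4-fold lower with 17.1 and 24.3 in pDCs and 1065, 439.5 and 469.7 in B cells (adjusted p = 2.44e-06).

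Genes of the endoplasmic reticulum were mostly higher in pDCs. Of 30 tested genes 22 were higher and none was lower, also at an unadjusted p below 0.05, with a median of 0.95 and 5 at a similar level. Among all genes tested 21.7% were higher, 20.8% lower and 36% at a similar level. With single arrays left out 17 to 24 were higher, and 1 was lower without B cell replicate 2. Ern1, the sensor IRE1 that splices Xbp1, gave 923 and 922 on the pDC arrays, against 81.6, 84.9 and 79.3 on the B cell arrays. It was 11.3-fold higher (3.49 ± 0.19, adjusted p = 1.23e-07), while another probe set of Ern1 had a difference of 1.13. Creb3l2, a factor released from the membrane under load, was 6.62-fold higher with 208 and 204 in pDCs and 59.6, 25.2 and 19.6 in B cells. The translocon gene Sec61b was 3.05-fold higher with 2951 and 3028 in pDCs and 1384, 829 and 820.3 in B cells, and Ssr1, of the associated TRAP complex, was 3.36-fold higher with 1979 and 1948 in pDCs and 681, 488 and 599.5 in B cells. Sec61a1, the channel itself, was 1.94-fold higher with 2529 and 2525 in pDCs and 1298, 1333 and 1284 in B cells. Dnajb9, a cochaperone induced through XBP1, was 3.58-fold higher, and Dnajc3, another cochaperone, was 4.56-fold higher. Canx, the lectin chaperone calnexin, was 1.73-fold higher with 3230.3 and 3022 in pDCs and 1940.4, 1681 and 1811 in B cells. Hspa5, the chaperone BiP, gave 7207 and 9106 in pDCs and 6323, 3931 and 3420.5 in B cells, and its call (0.88 ± 0.24, adjusted p = 0.0118) was lost without pDC replicate 2 (adjusted p = 0.104). In CD8α cDCs the means were 3058 for Sec61a1 and 9580 for Hspa5, above the pDC means of 2527 and 8157. They were below the pDC means for Ern1 (553), Creb3l2 (51.7), Sec61b (2614), Ssr1 (1853), Dnajb9 (649), Dnajc3 (364) and Canx (2476). All of these genes had lower means in CD11b cDCs than in pDCs. Further genes of the list went both ways. In CD8α cDCs Pdia3 (2465, against 1031 in pDCs), Pdia6 (3029, against 1727) and Herpud1 (3280, against 2394) had higher means. Txndc5 (535, against 1263) and Lman1 (295, against 521) had lower ones. Sel1l (419, against 306) and Edem1 (439, against 377) had higher means in CD11b cDCs than in pDCs. Derl1, of the degradation pathway, and Edem1, which marks its substrates, were at a similar level at 0.37 and 0.22. The interval of Derl1 was -0.20 to 1.03 without pDC replicate 1, and Edem1 was called without B cell replicate 1 (0.45, adjusted p = 0.0435).

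**Figure D4:**
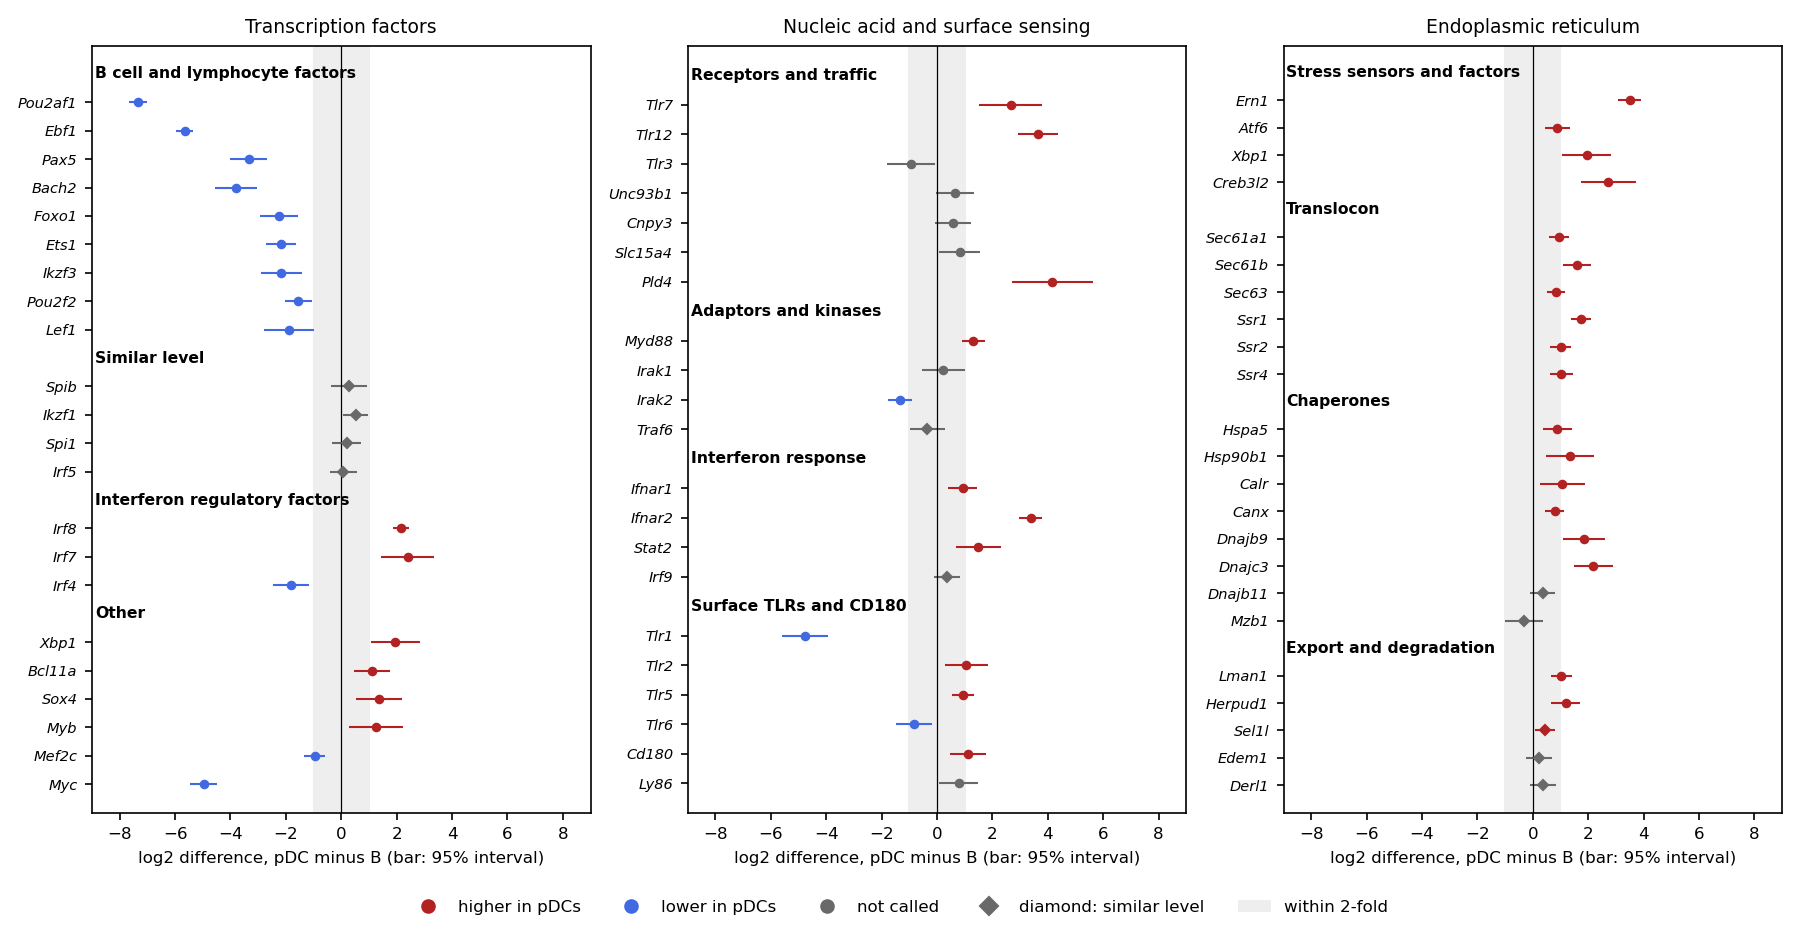
Log2 difference, pDC minus B, of transcription factors, genes of nucleic acid and surface sensing and genes of the endoplasmic reticulum, with bars for the 95% interval and shading for differences within 2-fold. Pou2af1, Ebf1 and Myc lie farthest to the left, Ern1, Ifnar2 and Tlr12 lie to the right, and Spi1, Irf5 and Edem1 lie on the line.

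Presentation of antigen by class II molecules is a function of both cell types. Of 18 tested genes of this pathway 2 were higher in pDCs, 6 were lower and 4 were at a similar level (median -0.51). The shares of all genes tested were 21.7%, 20.8% and 36%. Cd83, a surface protein that stabilises class II molecules, gave 149 and 119 on the pDC arrays, against 4682, 4553 and 3909 on the B cell arrays. It was 32.8-fold lower (-5.04 ± 0.22, adjusted p = 2.52e-08). Cd40, the receptor for T cell help, was 5.41-fold lower with 195 and 179 in pDCs and 1271, 942 and 862 in B cells. H2-Ob, a chain of the H2-O inhibitor of peptide loading, was 12.3-fold lower with 177 and 345 in pDCs and 3096, 3044 and 2945 in B cells, while its partner H2-Oa was at a similar level (-0.05 ± 0.33) with 1741 and 1536 in pDCs and 2637, 1282 and 1446 in B cells. The interval of H2-Oa passed the bound without pDC replicate 1 (-1.18 to 0.89), pDC replicate 2 (-0.995 to 1.07) or B cell replicate 2 (-1.03 to 0.51). Cd74, the invariant chain, gave 7519 and 6790.3 in pDCs and 10703, 9637 and 9167 in B cells and was at a similar level (-0.46 ± 0.21). Ciita, the coactivator of class II genes, was so too, with 115 and 100.2 in pDCs and 161, 124 and 111 in B cells. The 2 other probe sets of Ciita had differences of -1.38 and -0.53. The interval of Cd74 passed -1 without pDC replicate 1 (-1.17 to 0.10), pDC replicate 2 (-1.02 to 0.25), B cell replicate 2 (-1.02 to 0.08) or B cell replicate 3 (-1.05 to 0.04). Ctsh, a lysosomal cathepsin, was 3.40-fold higher with 7059 and 6162 in pDCs and 2733, 1456 and 1831 in B cells (adjusted p = 0.000154).

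Most receptors that place cells in tissue differed. Of 17 tested genes 8 were higher in pDCs, Itgax of the sort among them, and 6 were lower (median 0.06). Among all genes tested 21.7% were higher and 20.8% were lower. On the pDC side, beside Ccr9, stood Cxcr3, the receptor for interferon-induced chemokines, which was 26.8-fold higher with 1677 and 1269.6 in pDCs and 113, 41.3 and 34.7 in B cells. Ccr2, the receptor for monocyte chemokines, was at least 24.7-fold higher with 453 and 537 in pDCs and 7.55, 1.08 and 3.33 in B cells. Its 3 other probe sets had differences of 1.57 to 2.89. Itgal, the alpha chain of LFA-1, was 2.97-fold higher with 1119 and 1026 in pDCs and 458, 279 and 365 in B cells. Lower in pDCs were further chemokine and sphingolipid receptors. Ccr7, which leads cells to T cell zones and lymph nodes, gave 59.1 and 24.98 on the pDC arrays, against 2027, 2309 and 2001 on the B cell arrays. It was 54.9-fold lower (log2 -5.78, adjusted p = 1.63e-07), with a log2 difference of -6.40 without pDC replicate 1 and -5.16 without pDC replicate 2. Cxcr5, which leads B cells into follicles, was at least 78.6-fold lower with 9.61 and 11.4 in pDCs and 2366, 1364 and 1204 in B cells. Ccr6, the receptor for CCL20, was 15.8-fold lower, and S1pr1, which guides lymphocytes out of tissue, was 17.4-fold lower with 21.7 and 14.4 in pDCs and 558, 292 and 292 in B cells. Cxcr4, the receptor for CXCL12, was 6.90-fold lower with 145 and 102 in pDCs and 804, 916 and 803 in B cells. Gpr183, an oxysterol receptor that places B cells, was not called (-0.53 ± 0.34, adjusted p = 0.246). Itga4, an integrin chain of both lineages, was at a similar level (0.06 ± 0.16) with 1172 and 909 in pDCs and 962, 931 and 1076 in B cells.

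Cytokine receptors and survival genes also went both ways, with 6 of 15 tested genes higher in pDCs and 8 lower (median -0.91). The shares of all genes tested were 21.7% and 20.8%. Flt3, the receptor for the growth factor of dendritic cells, gave 996 and 1007 on the pDC arrays, against 16.3, 36.9 and 47.9 on the B cell arrays. It was 30.5-fold higher (4.93 ± 0.29, adjusted p = 2.27e-07). Csf2rb, the shared beta chain of the receptors for GM-CSF, interleukin-3 and interleukin-5, was 23.3-fold higher with 2202 and 2086 in pDCs and 183, 47.7 and 89.5 in B cells. Its probes may bind the related Csf2rb2. Tnfrsf13c, the receptor for the B cell survival factor BAFF, was 22.9-fold lower with 77.6 and 49.5 in pDCs and 2003, 1179 and 1211 in B cells (adjusted p = 2.17e-07). Tnfrsf13b, the related receptor TACI, gave 2015 and 1783 in pDCs and 2819.8, 632 and 874 in B cells and was not called (0.71 ± 0.50, adjusted p = 0.285). It was called without B cell replicate 1 (1.35, adjusted p = 0.00167). Bcl2, which protects lymphocytes from death, was 4.65-fold lower with 70.3 and 61.7 in pDCs and 555, 240.0 and 215 in B cells, and Il4ra, the interleukin-4 receptor chain, was 2.61-fold lower. Of 14 tested genes of DNA replication and mitosis 1 was higher and 4 were lower (median -0.17), beside 21.7% and 20.8% of all genes. Pcna, the sliding clamp, was at a similar level with 1730.1 and 1992 in pDCs and 2823, 2022 and 2177 in B cells.

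Markers of other cell types were read beside these results. None of 9 tested T cell markers was called by limma, and 1 of them, Lat, had an unadjusted p below 0.05 and was called without B cell replicate 2 (0.66, adjusted p = 0.0182). These 9 markers passed the signal filter only through other populations, so the lack of calls says little about contaminating cells. Their summed signal was 116.7 and 64.4 in pDCs and 197.7, 77.6 and 120.9 in B cells. Defining T cell genes such as Cd3e (17.97 and 2.49 in pDCs and 8.46, 2.01 and 9.40 in B cells) lay below the floor on all 5 arrays. Of 10 NK cell markers 2 were higher and 1 was lower. Their summed signal of 2658 and 2890.2 in pDCs, against 295.5, 138.7 and 171.3 in B cells, was nearly all Klrd1, the chain CD94, with 2561 and 2746 in pDCs and 84.2, 33.5 and 23.9 in B cells. Eomes and Ncr1, which define NK cells, lay below the floor on all 5 arrays. Of 10 macrophage and monocyte markers 3 were higher (Cd68, Csf1r and Cd14) and 1 was lower (Adgre1), with sums of 3808 and 3369 in pDCs and 389.2, 157.3 and 182.8 in B cells. C1qa and C1qc lay below the floor on all 5 arrays. Of 8 tested cDC markers 4 were higher in pDCs (Clec10a, Flt3, Sirpa and Zbtb46), and Xcr1 lay below the floor with 9.93 and 7.10 in pDCs and 16.4, 14.5 and 2.14 in B cells. Their sums were 4663 and 4040.3 in pDCs and 177.0, 165.4 and 100.2 in B cells. Clec10a gave 2848 and 2250 of the pDC sums, while its means were 11.3 in CD8α cDCs and 106 in CD11b cDCs. With the filter on pDCs and B cells only, 1 NK cell marker, 5 macrophage and monocyte markers and 3 cDC markers were kept. Among all genes tested 21.7% were higher in pDCs and 20.8% were lower. The part of contaminating cells in the results was not tested.

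B cell replicate 1 had higher signals than the other B cell arrays for some genes, chosen after their values were seen. Cr2, the complement receptor that is densest on marginal zone B cells, gave 2.09 and 2.12 on the pDC arrays, against 2916, 271 and 214 on the B cell arrays. It was at least 27.7-fold lower in pDCs with all arrays (log2 -4.79), and the log2 difference was -3.59 without that replicate and -5.47 without B cell replicate 3. Dtx1, a ubiquitin ligase of the Notch pathway in marginal zone cells, gave 27.8 and 34.6 in pDCs and 1953, 503 and 519 in B cells, a log2 difference of -4.69, and -4.04 without it. Cd1d1, a lipid-presenting molecule, gave 234 and 227 in pDCs and 1147, 220.5 and 219 in B cells and was not called (adjusted p = 0.364), and its difference turned to 0.07 without that array. Jchain, the joining chain of secreted IgM and IgA, gave 94.7 and 111 on the pDC arrays, against 7866, 92.1 and 332 on the B cell arrays. It was not called (-2.60 ± 1.32, adjusted p = 0.14), and the 2 pDC arrays lay within the B cell range. Without B cell replicate 2 it was called (-3.98, adjusted p = 0.0149). Of 6 tested genes of marginal zone and B1 cells 4 were lower in pDCs, beside 20.8% of all genes tested. The summed signal of the 6 genes was 343.7 and 333.7 in pDCs and 6372, 1173 and 1129 in B cells. Among neutrophil genes below the filter, S100a8 was highest on B cell replicate 1 and next on B cell replicate 3, with 18.2 and 22.4 on the pDC arrays, against 438, 27.2 and 128 on the B cell arrays. Mmp8 was not, with 7.47 and 1.39 in pDCs and 1.99, 15.2 and 21.9 in B cells.

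Immediate-early and heat shock genes divided the B cell arrays in the same way. Fos gave 5914 and 6406 on the pDC arrays, against 6595, 244 and 217 on the B cell arrays, so that the pDC arrays lay within the B cell range. It was not called (3.13 ± 1.19, adjusted p = 0.0556), but without B cell replicate 1 its difference was 4.74 and called (adjusted p = 1.95e-05). Jun gave 4809 and 5797 in pDCs and 2567, 92.3 and 89.1 in B cells, and its log2 difference of 4.26 was 5.86 without that array. The call of Jun (adjusted p = 0.0164) was lost without pDC replicate 1 (adjusted p = 0.0877), pDC replicate 2 (adjusted p = 0.103), B cell replicate 2 (adjusted p = 0.0533) or B cell replicate 3 (adjusted p = 0.0525). Hspa1a, an inducible heat shock protein, gave 3922 and 3968 in pDCs and 6509.7, 177 and 169.7 in B cells, and was called without B cell replicate 1 (4.51, adjusted p = 0.000184). Of 10 tested genes of this kind 2 were higher in pDCs and 1 was lower with all arrays, and 7 were higher and 1 was lower without B cell replicate 1. With all arrays 21.7% of all genes tested were higher and 20.8% were lower.

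**Figure D5:**
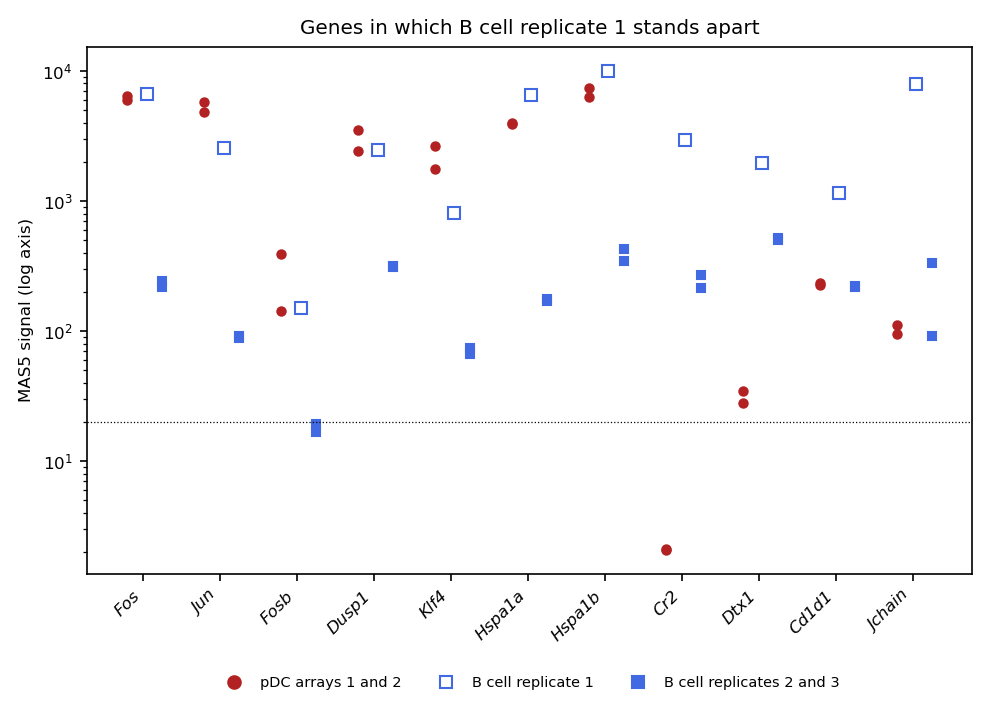
MAS5 signal (log axis) of 11 genes, chosen after their values were seen, on the 2 pDC arrays (red circles), B cell replicate 1 (open blue squares) and B cell replicates 2 and 3 (filled blue squares), with a dotted line at the floor of 20. B cell replicate 1 lies with the pDC arrays for Fos, Dusp1, Hspa1a and Hspa1b and above all other arrays for Cr2, Dtx1, Cd1d1 and Jchain.

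Sex-linked genes also set the arrays apart. Xist, the RNA that silences an X chromosome in female cells, gave 3838 and 4503 on the pDC arrays, against 1.05, 4272 and 0.897 on the B cell arrays. Eif2s3y, a gene of the Y chromosome, gave 2.09 and 0.344 on the pDC arrays, against 649, 3.65 and 605 on the B cell arrays. Of the 3 B cell arrays only replicate 2 had a high Xist signal and no Eif2s3y signal above the floor, as both pDC arrays did. Sex thus differed between and within the groups, and the part of sex in other differences was not tested.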

How the data were processed

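RNA of sorted spleen cells was amplified in 2 rounds and hybridised to Affymetrix Mouse Genome 430 2.0 arrays. Deposited values are intensity signals that the authors obtained with MAS5, linear and scaled to a target of 100 per array. The replicates of each population are described as independent sorts. Per the file headers, the RNA amplified was 100 and 89 ng for the pDCs and 100, 50 and 50 ng for the B cells. The fluidics record of B cell replicate 3 was marked as aborted. Between 54.95 and 56.3% of probe sets lay below 20 on the pDC arrays and between 49.1 and 52.52% on the B cell arrays, so folds at low levels are limited, and the small number of arrays limits the precision.

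The annotation named 1 gene for 34958 of 45101 probe sets (34754 found by gene ID), several genes for 932 and no gene for 9211. Genes with a signal of at least 50 on all arrays of at least 1 of the 6 populations were kept (9391 genes), each by its probe set with the highest mean. For 1345 of them this population was neither pDCs nor B cells. Values were floored at 20 and log2 transformed. A single limma model (R 4.3.3, limma 3.58.1) with 6 population means was fitted to the 13 arrays, with 7 residual degrees of freedom and a median standard error of 0.229, and gave the contrast pDC minus B with Benjamini-Hochberg adjustment over all genes. Populations wholly below the floor add no spread to this error, so the intervals do not measure the spread of the 5 arrays alone. In a fit of these 5 arrays 2824 genes were at a similar level, 6 of them among the listed lymphoid genes. The model was tested on simulated data. Named genes were the 15 largest non-overlapping differences each way, listed genes of known function, and 15 genes at a similar level that stand farthest above the cDC means. Members and lists were chosen with earlier results of these data known. Listed genes without an annotated probe set are not reported here. Alternatives covered normalization, floor, filter, probe set choice, model, scan day, replicate number and the leaving out of each array. Promoter windows came from RefSeq (GRCm38.p6).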

Additional observations from a re-analysis of the deposited data

How the results depend on the processing

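The count of 3985 called genes was between 3335 and 4176 under the other normalizations, floors, filters, probe sets and models tried, apart from the fit of the 5 arrays alone (2794), and between 2913 and 4711 when 1 array was left out. Genes lower in pDCs numbered 1950, against 1285 in the fit of the 5 arrays alone and 1271 to 2299 when 1 array was left out. Genes higher in pDCs numbered 1509 to 2132 under the same alternatives and 1522 to 2412 with 1 array left out. Asking for at least 2-fold left 2407 calls. Of genes at a similar level, 3383 as reported, 2228 met the rule with a 99% interval and 901 met it within 1.5-fold, while 2577 to 3247 met it with 1 array left out. Deviations of same-numbered pDC and B cell arrays correlated at 0.145 and 0.151 over 2 pairs, and no label ties the numbers, so they were not taken as pairs. With the replicate number as a block 3335 genes were called, 1754 higher and 1581 lower, and 3117 were at a similar level. With scan day as a random block 4176 were called. The lists and their leave-out counts were added after the data were seen. Of 113 named genes that were called, 97 kept the call under all 17 alternatives in which they were tested, and of 32 named genes at a similar level and not called, 9 stayed so. Among the other named genes only the log2 difference of Cd1d1, which was not called, turned its direction. It was -1.12 to 0.0714 when 1 array was left out, with 0.0714 found without B cell replicate 1. Precision at low levels is limited by the floor.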
